A study of Mus musculus with 24 samples.

Results

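The genes described here are 19 mouse microRNA precursors that were detected in a small RNA sequencing series. They lie outside the microRNA groups that were set aside by name, although some belong to other clusters. They were selected on their summed counts: the rows of the deposited count table with the miRNA biotype, a symbol of Mir followed by a number, and 50 or more counts summed over the 24 libraries. Rows inside the imprinted microRNA interval of chromosome 12 and rows of the named stem cell, neural and cell cycle clusters were left out. The members are 19 of 1163 microRNA rows and of 55335 rows in all. They held 10272 of 25027120 counts, which was 0.0410% of all counts and 17.6% of the counts on microRNA rows. The sum of counts chose them, so their abundance is a description. Mir744 with 50 counts and Mir3110 with 54 lay just inside the minimum, and Mir670 and Mir150 with 44 each lay just outside it.

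The series compared mouse embryonic stem cells (mESC) with neural progenitor cells (NPC) made from them, across lines that differ in Htt, the gene of huntingtin, whose CAG repeat is expanded in Huntington's disease. Its 6 lines were an Htt knockout (KO), a wild type (WT) and 4 heterozygous knock-in lines, Q20, Q50, Q92 and Q111, named after their repeat number (the growth protocol gives 89 for Q92). Each line was sampled as mESC and as NPC with 2 libraries, 1 per biological sample, giving 12 groups of 2. The mESC grew with leukemia inhibitory factor on irradiated mouse embryonic fibroblasts, and the NPC grew on laminin with FGF and EGF. Each genotype was represented by 1 line, so effects of genotype and of line cannot be told apart.

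A microRNA begins as a hairpin in a longer transcript, often in an intron of a host gene. Drosha and Dgcr8 cut the hairpin out, Dicer1 trims it, and an Argonaute protein keeps 1 strand of about the length printed below. Bases 2 to 8 of that strand, the seed, do most of the pairing with target messengers. Some microRNAs, called mirtrons, skip Drosha because the spliced intron is itself the hairpin. The counts here are on precursor rows and do not separate the arms of a hairpin.

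For the precursors on which the results turn, RefSeq (GRCm38.p6) held the mature sequences below, and 18 of the 19 members had at least 1 entry. They are printed 5′ to 3′ with the seed in capitals. The first set belongs to precursors that were lower in NPC.
miR-877-5p: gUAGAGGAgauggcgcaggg
miR-877-3p: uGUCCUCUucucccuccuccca
miR-7a-5p: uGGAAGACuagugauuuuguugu
miR-7a-1-3p: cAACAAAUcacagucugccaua
miR-101b-5p: uCGGUUAUcaugguaccgaugcu
miR-101b-3p: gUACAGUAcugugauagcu
miR-142a-5p: cAUAAAGUagaaagcacuacu
miR-142a-3p: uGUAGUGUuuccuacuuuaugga

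The second set belongs to precursors that were higher in NPC.
miR-99b-5p: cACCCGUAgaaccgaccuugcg
miR-99b-3p: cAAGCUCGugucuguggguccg
miR-335-5p: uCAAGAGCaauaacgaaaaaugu
miR-335-3p: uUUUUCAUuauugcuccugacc
miR-3110-5p: uUCUGCCUccccugaaggcuc
miR-3110-3p: gCACUCCAucggaggcagacac
miR-16-5p: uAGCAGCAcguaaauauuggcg
miR-16-1-3p: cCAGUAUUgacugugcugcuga

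The third set belongs to precursors that appear below for other reasons, namely the neighbour of Mir16-1, a precursor that differed between lines, and an abundant one.
miR-15a-5p: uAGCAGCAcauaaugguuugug
miR-15a-3p: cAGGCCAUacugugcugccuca
miR-296-5p: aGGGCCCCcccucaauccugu
miR-296-3p: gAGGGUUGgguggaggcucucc
miR-6236: gCCGUCGCcggcagucagg

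Among the members, miR-16-5p and miR-15a-5p were the only mature sequences that shared a seed, AGCAGCA. The seed of miR-7a-5p, GGAAGAC, was shared with the products of Mir7-2 and Mir7b, which had 0 counts in all 24 libraries. The seed of miR-99b-5p, ACCCGUA, was shared with Mir99a, which had 22 counts, and Mir100, which had 4. As the reads were counted, most counts in each of these families were on members.

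The Mir877 precursor (chromosome 17, 35960730 to 35960814, minus strand) was also examined base by base, because it filled an annotated intron of Abcf1 exactly, with 0 bases left over at either end of the 85-base intron. Its sequence, with both mature arms in capitals, starts with GU and ends with AG, the ends of a usual intron.
Mir877 precursor: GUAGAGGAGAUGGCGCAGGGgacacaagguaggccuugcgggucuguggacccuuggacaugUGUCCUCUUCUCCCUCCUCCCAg

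No other member filled an intron. In all, 11 members lay on the same strand inside another gene: Mir101b in Rcl1, Mir7-1 in Hnrnpk, Mir99b in Spaca6, Mir335 in Mest, Mir16-1 and Mir15a in Dleu2, Mir142 in Mir142hg, Mir345 in Slc25a47, Mir708 in Tenm4, Mir744 in Map2k4, and Mir877 in Abcf1. Mir16-1 and Mir345 also overlapped an exon of a host transcript, so reads there could belong to either gene. Mir3110 lay in an intron of Tmem255a on the opposite strand. Predicted folding energies of the 19 hairpins (median -0.42 kcal/mol per base, from RNAfold) were near those of all 1163 microRNA rows (median -0.41).

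Counts were concentrated in a few members. Mir877 held 2934 counts, or 28.6% of the members' total. Mir5099 (chromosome 12, 36816205 to 36816278) held 2031 and Mir101b 1396. Mir6236 (chromosome 9, 110281287 to 110281409) held 936, Mir7-1 held 676 and Mir99b 520. At the other end, Mir130a, Mir345, Mir708, Mir298, Mir3110 and Mir744 had 50 to 75 counts each over all 24 libraries. These are counts per row and are not corrected for length.

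Library totals ranged from 642384 to 2360434 counts in mESC and from 342022 to 682113 in NPC, so a count of 0 in a library allowed a level of up to 1.36 to 4.23 scaled counts (CPM) in mESC and 4.49 to 8.44 CPM in NPC. CPM means counts divided by the TMM-scaled library total, times 1000000. Htt, as a check of the labels, had 3 and 2 counts in the KO mESC libraries against 8 and 8 in WT, and 1 and 1 in the KO NPC libraries against 9 and 2 in WT. Some knock-in lines were as low, with 5 summed counts in mESC Q92 and 2 in NPC Q111. These sparse counts therefore do not set KO apart from every other line. The summed level of the 19 mESC markers was 1254 to 3702 CPM in mESC and at most 2.29 CPM in 10 NPC libraries, but 362 and 382 CPM in the Q20 NPC libraries. In NPC that sum lay mostly on microRNA rows, with 262 counts for Mir302b, 107 for Mir293 and 28 for Mir292. Nanog, Zfp42, Tdgf1, Dppa5a and Mir294 had 0 counts in NPC, and Pou5f1 and Esrrb had 2 each. In the Q20 NPC libraries, 6 of the 19 markers had 0 counts. The summed level of the 10 NPC markers was 92.4 and 123 CPM in the Q20 NPC libraries, 176 to 347 CPM in the other NPC libraries and 8.59 to 20.1 CPM in mESC. The Q20 NPC libraries therefore stood apart from the other NPC libraries, and results are given with and without them. Of 14 feeder fibroblast markers, 10 had 0 counts in all mESC libraries, collagens, lumican and decorin among them. The summed level of the list was 0.660 to 12.2 CPM in mESC and 0 to 20.8 CPM in NPC. Of 6 neuron and glia markers the sum was at most 1.36 CPM in mESC and 17.3 CPM in NPC.

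Most of the members that could be tested differed between NPC and mESC, as did most genes tested. Medium, growth surface and cell type changed together and cannot be told apart. Of the 12 members that passed the filter on low counts over all 24 libraries, 4 rose in NPC (Mir99b, Mir335, Mir3110 and Mir16-1) and 5 fell (Mir7-1, Mir877, Mir142, Mir101b and Mir5099) by edgeR's quasi-likelihood test with Benjamini-Hochberg adjustment over all 904 genes tested. Changes were common in the whole table, where 58.4% of the genes tested were called, 30.4% higher and 28.0% lower. With library totals in place of TMM the split was 350 higher and 159 lower over all genes, and 4 and 4 among the members. The median log2 change was 0.29 over the 12 members and -0.02 over all genes tested. Mir335, Mir3110 and Mir15a passed the filter through NPC alone and Mir142 through mESC alone, since the filter asked for 15.1 CPM, here on unscaled library totals, in at least 2 libraries. A member that entered only through the cell type in which it was high was favoured to differ, so these counts are a description and no support for a tendency of the members. The other 3 tested members, Mir296, Mir15a and Mir6236, did not pass the test. In bulk RNA, fewer cells of a type and less RNA per cell cannot be told apart.

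**Figure D1:**
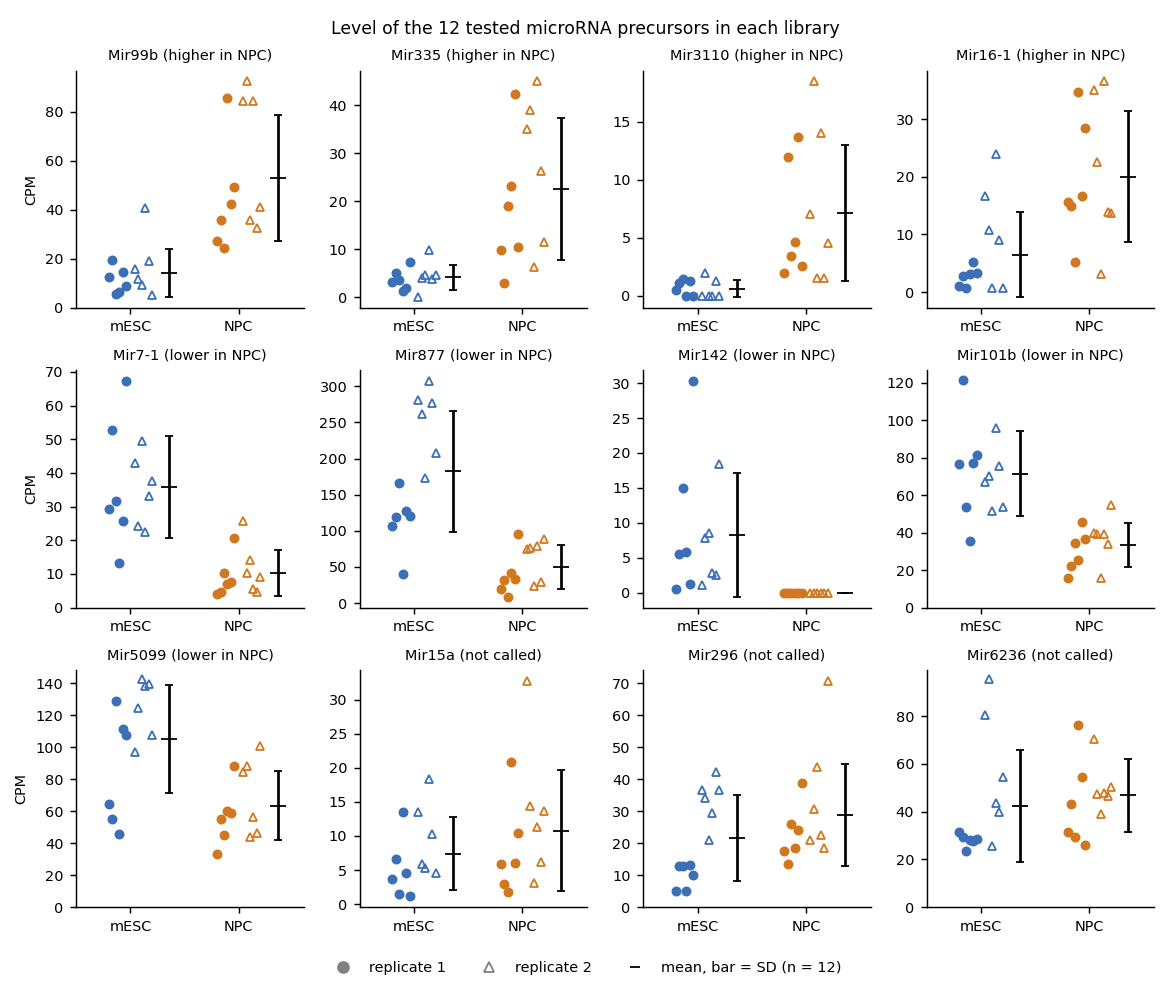
Level in CPM (vertical axis, linear, a scale of its own in each panel) of the 12 tested precursors in each mESC (blue) and NPC (orange) library, with filled circles for replicate 1, open triangles for replicate 2, and black marks for the mean and SD of 12 libraries. Mir142 is at 0 in all NPC libraries, while the other called precursors overlap between cell types in at least 1 library.

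Among the precursors that rose, Mir99b encodes a member of the miR-99/100 family and sits in a cluster with Mirlet7e and Mir125a (chromosome 17, 17830188 to 17830257). Its level in mESC was 5.36 to 40.9 CPM with a median of 12.1, and in NPC 24.3 to 92.4 CPM with a median of 41.8. Every NPC library lay above the mESC median, and 7 of the 12 lay above all mESC libraries. In the fit, the log2 change was 1.95 ± 0.27 (SE) with an edgeR adjusted p of 1.96e-06.

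The near neighbour Mirlet7e, which starts 164 bases downstream of the start of Mir99b and gives rise to a let-7 microRNA, had 9 counts in mESC and 47 in NPC. Mir125a, which starts 624 bases downstream, had 0 counts in every library. As a share of the counts of Mir99b and Mirlet7e together, Mir99b was 95.7% ± 3.84 in mESC but 86.8% ± 5.98 in NPC (SD over 12 libraries). This share was lower in NPC (permutation test, two-sided, 100000 resamples, adjusted p 3.00e-04 over 5 such pairs, which were chosen after the values were seen). Both precursors had more counts in NPC, and their balance shifted toward Mirlet7e.

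Mir335 (chromosome 6, 30741299 to 30741396) lies in an intron of Mest, an imprinted gene expressed from the paternal copy. It was listed at 0 to 9.86 CPM in mESC with a median of 3.87, and at 2.99 to 45.0 CPM in NPC with a median of 21.1. Of the NPC libraries, 9 lay above all mESC libraries, and no mESC library reached the filter, which Mir335 passed through NPC alone. Its estimated log2 change was 2.42 ± 0.40 (SE) with an edgeR adjusted p of 1.66e-05. The filter favoured a difference in this direction, so this p is a description.

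Counts on the host Mest rose as well, from 3.70 ± 3.26 to 24.3 ± 19.3 CPM (SD, 12 libraries each). The log2 change was 2.80 ± 0.42 (SE, adjusted p 4.37e-06 by edgeR). Counts on host genes in small RNA libraries are of RNA fragments and may not follow messenger levels. Mir335 made up 55.7% ± 30.3 of the counts of the pair in mESC and 49.9% ± 18.0 in NPC. No difference in that share was detected (permutation test, two-sided, adjusted p 0.568). The share ranged from 0% to 100% over the mESC libraries, in most of which Mir335 had fewer than 10 counts.

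Mir3110 (chromosome X, 38210441 to 38210520) was the member with the largest estimated rise and the fewest mESC counts. In mESC it had 0 counts in 6 libraries and at most 2 in the others, 10 in all. In NPC every library had at least 1 count, up to 9, and 44 in all. In CPM the NPC libraries ranged from 1.55 to 18.5, and 10 of the 12 lay above every mESC library. On the log2 scale, the change was 3.60 ± 0.60 (SE) with an edgeR adjusted p of 2.43e-05. Mir3110 passed the filter through 2 NPC libraries alone, so it was favoured to differ and this p is a description. WT was the highest line, at 12.0 and 18.5 CPM, while the libraries of Q50 (4.62 and 14.1) and Q92 (13.7 and 1.55) differed widely.

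Mir16-1 and Mir15a are neighbours on chromosome 14 (61631880 to 61631972 and 61632027 to 61632110) in Dleu2, and their main products share the seed noted above. The miR-15/16 family is known for holding back cyclins and Bcl2. Mir16-1 stood at 0.658 to 24.0 CPM in mESC with a median of 3.27, and at 3.13 to 36.6 CPM in NPC with a median of 16.2. It rose with a log2 change of 1.93 ± 0.44 (SE; adjusted p 5.72e-04 by edgeR). Mir15a stood at 1.12 to 18.3 CPM in mESC and 1.73 to 32.8 CPM in NPC, with medians of 5.55 and 8.29. Its log2 change of 0.53 ± 0.38 did not pass the test (SE; adjusted p 0.239 by edgeR).

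The balance of the 2 precursors differed between the cell types. Mir16-1 made up 40.1% ± 21.3 of the counts of the pair in mESC (82 against 114 counts) and 66.6% ± 11.3 in NPC (114 against 60 counts). All 12 NPC libraries lay above the mESC median of the share (permutation test, two-sided, adjusted p 0.0021). The pair was chosen after its values were seen, so this p is a description. Split by replicate number, the mean share was 38.7% in mESC and 73.4% in NPC for replicate 1, and 41.4% and 59.8% for replicate 2. The paralogous cluster copies Mir16-2 and Mir15b had 27 and 30 counts in all. Mir16-2 shares 4 of the 20-base stretches of Mir16-1, and reads inside those stretches cannot be assigned to 1 copy.

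**Figure D2:**
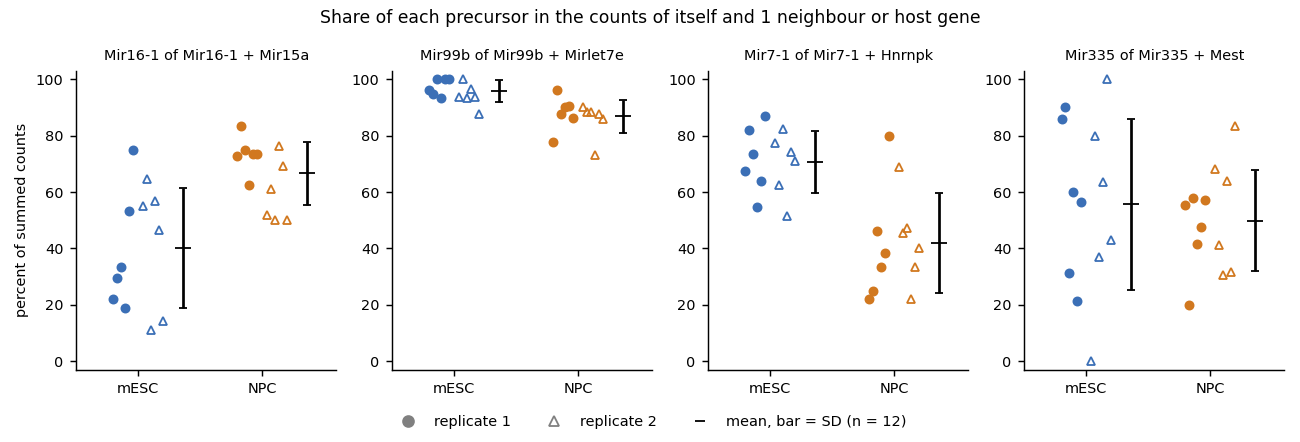
Percent of the summed counts of a pair (vertical axis) that fell on the first-named precursor, per library, in mESC (blue) and NPC (orange), with filled circles for replicate 1, open triangles for replicate 2 and black marks for the mean and SD of 12 libraries. Mir16-1 gains against Mir15a, Mir99b loses against Mirlet7e, Mir7-1 loses against its host Hnrnpk, and Mir335 and its host Mest keep overlapping shares.

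Among the precursors that fell, Mir7-1 (chromosome 13, 58392779 to 58392886) gives miR-7a, a microRNA known from neuroendocrine cells and neurons, and lies in an intron of Hnrnpk, which encodes an RNA-binding protein made in most cells. Mir7-1 stood at 13.1 to 67.3 CPM in mESC with a median of 32.4, and at 3.91 to 25.7 CPM in NPC with a median of 8.37. Of the NPC libraries, 9 lay below all mESC libraries. The log2 change was -1.82 ± 0.28 (SE) with an edgeR adjusted p of 5.57e-06.

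The counts on its host did not move with it. They are counts of RNA fragments in small RNA libraries and may not follow the level of the Hnrnpk messenger. Over 12 libraries each, Hnrnpk averaged 13.2 ± 3.06 CPM (SD) as mESC and 12.7 ± 3.46 CPM as NPC, with a log2 change of -0.04 ± 0.21 that did not pass the test (SE; adjusted p 0.966 by edgeR). Mir7-1 made up 51.6% to 87.0% of the counts of the pair in mESC (median 72.2%) and 22.2% to 80.0% in NPC (median 39.2%). This was a lower share in NPC (permutation test, two-sided, adjusted p 5.00e-04). The pair was chosen after its values were seen, so the p is a description. Of the NPC libraries, 1 lay above the mESC median of that share.

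Mir877, the mirtron, fell from a median of 169 CPM in mESC (40.3 to 307) to 37.5 CPM in NPC (8.67 to 96.1). Of the NPC libraries, 6 lay below all mESC libraries and all 12 lay below the mESC median. In the fit, the log2 change was -2.04 ± 0.32 (SE) with an edgeR adjusted p of 7.41e-06. Its host Abcf1, which encodes an ATP-binding cassette protein of translation, had 40 counts in mESC and 15 in NPC. That was too few to pass the filter, with means of 2.58 ± 1.62 and 2.69 ± 2.30 CPM (SD over 12 libraries).

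Mir142 (chromosome 11, 87756864 to 87756927) is best known from blood cells and has also been described in mouse embryonic stem cells. It was present in all 12 mESC libraries, at 0.522 to 30.3 CPM, and had 0 counts in all 12 NPC libraries. Over the pooled libraries it was at least 18.5-fold lower in NPC, taking 3 counts over the 12 NPC libraries as the floor (edgeR adjusted p 2.21e-05). Mir142 passed the filter through 2 mESC libraries alone, so it was favoured to differ and this p is a description. It was the only member whose cell types did not overlap. Of all genes tested, 3.87% had every NPC library below every mESC library and 7.08% the reverse. The host Mir142hg had 5 counts in mESC and 0 in NPC, and Mir142b, annotated on the opposite strand at the same place, had 0 in all libraries.

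Mir101b (chromosome 19, 29135279 to 29135375) gives miR-101b, known for targeting Ezh2, and fell from 35.3 to 121 CPM in mESC (median 72.8) to 15.6 to 54.9 CPM in NPC (median 35.5). Its estimated log2 change was -1.10 ± 0.22 (SE) with an edgeR adjusted p of 1.58e-04. Its paralogue Mir101a had 0 counts in all libraries. The host Rcl1 had 23 counts in mESC and 4 in NPC, too few to be tested.

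Mir5099 showed the smallest called change. It ranged from 45.7 to 143 CPM in mESC (median 110) and from 33.2 to 101 CPM in NPC (median 57.7), so most libraries overlapped, although all 12 NPC libraries lay below the mESC median. On the log2 scale, the change was -0.74 ± 0.21 (SE) with an edgeR adjusted p of 0.0043. With library totals in place of TMM scaling, which shifted the median change of all genes by 0.34, the change was -0.43 and did not pass the test (edgeR adjusted p 0.129).

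The directions of Mir296, Mir15a and Mir6236 were not the same in every fit, although neither DESeq2 size factors nor library totals reversed them. Mir296 (chromosome 2, 174267047 to 174267125), near the imprinted Gnas region, was at 4.98 to 42.2 CPM in mESC and 13.5 to 70.9 CPM in NPC, and its log2 change was 0.38 ± 0.35 (SE; adjusted p 0.360 by edgeR). Its neighbour Mir298, which starts 457 bases away, had 40 and 17 counts, and Mir296 made up 88.3% ± 8.02 and 91.6% ± 7.49 of the counts of that pair (permutation test, two-sided, adjusted p 0.376). Mir6236 was at 23.7 to 95.4 CPM in mESC and 26.0 to 76.3 CPM in NPC, with a log2 change of 0.20 ± 0.24 (SE; adjusted p 0.473 by edgeR). When the fit was restricted to microRNA genes, of which 79.2% were called, the changes were -0.24 for Mir296, -0.24 for Mir15a and -0.49 for Mir6236, the last with an edgeR adjusted p of 0.0226. In that fit the members shifted by a median of -0.71 against the fit on all genes.

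The other 7 members did not pass the filter over all libraries. Mir708, in an intron of Tenm4, had 62 counts spread over all 12 mESC libraries and 1 count in NPC, in a WT library. The pooled mESC level was 22.8 times that in NPC, with an exact 95% interval for counting error of 3.94 to 915. Mir1983 had 83 and 13 counts and Mir23a had 91 and 21. In a fit with no filter, where 10.4% of 19429 genes were called, 464 higher and 1560 lower, and the median log2 change over all genes was -0.35, these 3 fell, with log2 changes of -4.58 for Mir708, -2.31 for Mir1983 and -1.22 for Mir23a (edgeR adjusted p 2.42e-07, 2.21e-04 and 0.0442). For Mir23a this value is larger than the difference of its levels, which over 12 libraries each had a mean of 5.49 ± 3.45 CPM (SD) for mESC and 3.47 ± 2.18 for NPC, and 5 of the 12 NPC libraries lay above its mESC median. Mir708, Mir1983 and Mir23a reached the minimum of 50 counts through mESC alone, so the choice of members favoured a fall. Their p values in the fit with no filter are a description. Mir130a (58 and 17 counts), Mir744 (41 and 9), Mir298 (40 and 17) and Mir345 (39 and 31) did not pass the test in that fit, with edgeR adjusted p from 0.0504 to 1.00. Mir23a lies beside Mir27a and Mir24-2, which had 18 and 5 counts.

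Replicate number was a second axis of variation in mESC. In the 5 mESC lines other than Q20, replicate 2 had a larger share of counts on the members than replicate 1, for example 0.0308% and 0.0696% in KO and 0.0231% and 0.0841% in Q50. In Q20 the shares were 0.0360% and 0.0414%. In NPC the lines were split. Replicate 2 had the larger share in KO (0.0260% and 0.0645%), WT (0.0243% and 0.0556%) and Q20 (0.0268% and 0.0292%), and the smaller one in Q50 (0.0391% and 0.0359%), Q92 (0.0531% and 0.0415%) and Q111 (0.0480% and 0.0456%). Of the members, 5 were higher in replicate 2 in all 5 lines (Mir877, Mir5099, Mir6236, Mir296 and Mir1983), where 17.6% of the 1766 genes tested in mESC did the same. Mir296 was the clearest, at 4.98 to 13.2 CPM in the replicate 1 libraries of these lines and 29.6 to 42.2 CPM in the replicate 2 libraries. The summed feeder markers were 0.660 to 3.62 CPM in the mESC replicate 1 libraries and 3.95 to 12.2 CPM in the replicate 2 libraries, Q20 included. In mESC that sum came from Sparc (49 counts), Mir143 (14), Mir145a (12) and Thy1 (1). The same list reached 20.8 CPM in NPC, which grew on laminin, so the sum is no clean measure of feeder cells. Depth differed along the same axis. In the 5 mESC lines other than Q20, replicate 1 had the larger library total. It was 2171235 against 962520 counts in KO and 2136500 against 642384 in Q50, while Q20 had 1795879 and 1901042. The parts of feeder cells and of depth in the difference were not tested. The labels name no batch.

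Because of that axis, the change from mESC to NPC was recomputed within each replicate number, in an analysis chosen after the values were seen. Mir99b had a log2 change of 1.85 among replicate 1 libraries and 1.92 among replicate 2 libraries, and Mir7-1 -2.12 and -1.72. Mir16-1 had 2.71 and 1.13. Mir877 had -1.77 and -2.18. These were called at both replicate numbers by edgeR with Benjamini-Hochberg adjustment, as were Mir335, Mir3110, Mir142 and Mir101b. Mir335, Mir3110 and Mir142 had passed the filter through 1 cell type alone, so their calls are a description. Mir5099 was called among replicate 2 libraries (-0.93, edgeR adjusted p 0.0062) but not among replicate 1 libraries (-0.63, edgeR adjusted p 0.0763). Mir296 was called higher among replicate 1 libraries (1.12, edgeR adjusted p 0.0055) and was at -0.06 among replicate 2 libraries (edgeR adjusted p 0.899).

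**Figure D3:**
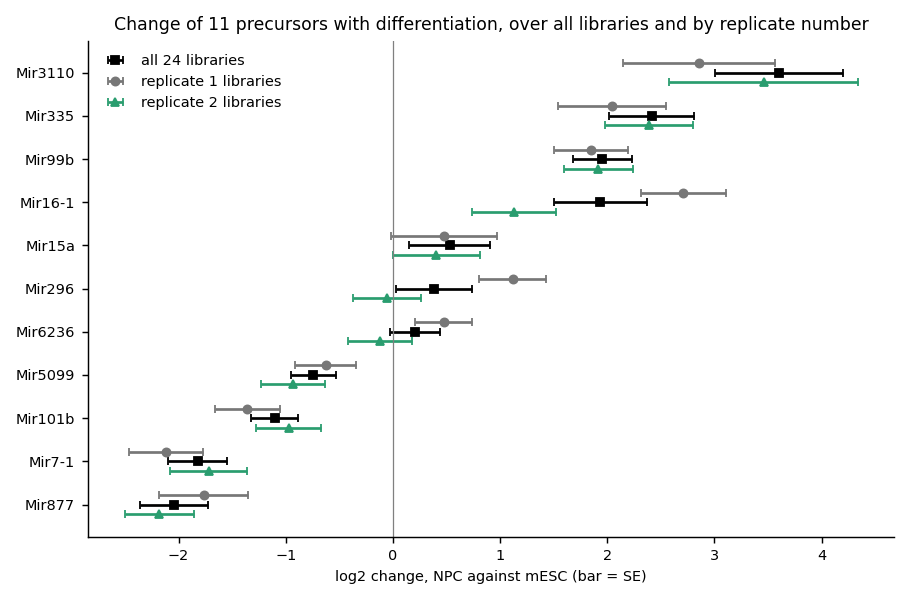
Log2 change in NPC against mESC (horizontal axis, bars are SE) of 11 tested precursors, from all 24 libraries (black squares), replicate 1 libraries (grey circles) and replicate 2 libraries (green triangles). Mir142 is left out because its NPC libraries are all at 0. The estimates for Mir99b are close together (1.85 to 1.95), those for Mir16-1 and Mir296 are spread out, and Mir296 and Mir6236 change sign between replicate numbers.

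Without the Q20 lines the same number of members was called (9 of 12). The log2 changes were then between 1.72 and 3.83 for the 4 that rose. Of those that fell, Mir5099 had -0.69, Mir101b -1.25, Mir877 -1.87 and Mir7-1 -1.98. Mir142, with 0 counts in all NPC libraries, was also called lower. With the WT libraries alone, 9 members were tested and 3 were called, Mir99b (2.14), Mir3110 (3.41) and Mir7-1 (-2.29).

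The genes that make and load microRNAs were examined as a list of 26, from Drosha and Dicer1 to Argonautes and Tnrc6 proteins. Of these, 25 had a count but only 7 passed the filter. Here too the counts are of RNA fragments in small RNA libraries and may not follow messenger levels. Tnrc6b, a partner of Argonaute in silencing, rose by a log2 change of 0.92 ± 0.29 (SE; adjusted p 0.0082 by edgeR), and Ncl, the nucleolar protein nucleolin, fell, with a log2 change of -1.47 ± 0.17 (SE; adjusted p 1.08e-07 by edgeR). Ddx5, Srsf3, Ago1, Ago2 and Tnrc6a did not pass the test. The median log2 change of the 7 was 0.12, against -0.02 for all genes tested. Drosha (102 and 18 counts), Dgcr8 (45 and 14) and Dicer1 (118 and 40) were too sparse over the libraries to be tested.

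Loss of Htt was compared with WT in each cell type. In mESC, 0 of 14 members tested were called, as were 0.00% of 1766 genes, and 18 genes, 1 of them a member, had an unadjusted p under 0.05 (edgeR's quasi-likelihood test). DESeq2 also called 0. That member was Mir142, with 1 and 1 counts in KO and 10 and 8 in WT. The pooled WT level was 9.14 times that in KO (exact 95% interval for counting error 2.19 to 81.2). The log2 change in the fit was -2.98 ± 0.86 (SE, unadjusted p 0.0033, edgeR adjusted p 1.00). In NPC, 0 of 9 members tested were called, against 1.36% of 441 genes (1 higher and 5 lower, or 1 and 0 with library totals), and 0 members had an unadjusted p under 0.05. DESeq2 called 0 members there too. The estimates in NPC ranged from -0.23 for Mir5099 to 1.05 for Mir7-1, each with an SE of 0.38 or more, so changes of 1 log2 unit were within the 95% intervals of several members. No difference in the KO effect between mESC and NPC was detected for any of 12 members (0.00% of 904 genes called by edgeR, 36 genes with an unadjusted p under 0.05).

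Over the 6 mESC lines, 0 of 14 members were called by the edgeR test for any difference, against 0.0566% of 1766 genes, and 2 members had an unadjusted p under 0.05, Mir142 and Mir15a. Mir142 was the closest, with an edgeR adjusted p of 0.0509. Its counts in replicates 1 and 2 were 1 and 1 in KO, 10 and 8 in WT, 21 and 13 in Q20, 13 and 2 in Q50, 2 and 2 in Q92, and, for Q111, 54 and 24. In CPM both Q111 libraries (30.3 and 18.4) lay above the other 10, and both KO libraries (0.522 and 1.04) lay below the other 10. The pooled Q111 level was 36.3 times that in KO, with an exact 95% interval for counting error of 9.71 to 305.

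The order of the Mir142 levels did not follow repeat length. Q92, at 1.32 and 2.56 CPM, lay next to KO, and Q50, at 5.88 and 2.82 CPM, lay below Q20 (15.1 and 8.55). Q50 replicate 2 and both Q92 libraries had 2 counts each, so Q50 and Q92 were not clearly apart. WT, at 5.54 and 7.79 CPM, overlapped Q50. With a batch term that put Q20 among the first replicates, 3.68% of genes were called and Mir142 passed the test (edgeR adjusted p 2.05e-05). With the replicate number as a block, 1.64% of genes were called and Mir142 passed as well (edgeR adjusted p 5.91e-05). Under both, Mir15a was also called (edgeR adjusted p 0.0213 and 0.0256). Over all other settings tried the edgeR adjusted p of Mir142 was 7.16e-05 to 0.619.

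Mir15a in mESC was highest in Q50, at 13.6 and 18.3 CPM, and lowest in Q111 and Q20, at 1.12 and 4.59 and at 1.43 and 5.26 CPM. In the 5 lines other than Q20, replicate 2 was above replicate 1 in 4. Its edgeR adjusted p without a batch term was 1.00.

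**Figure D4:**
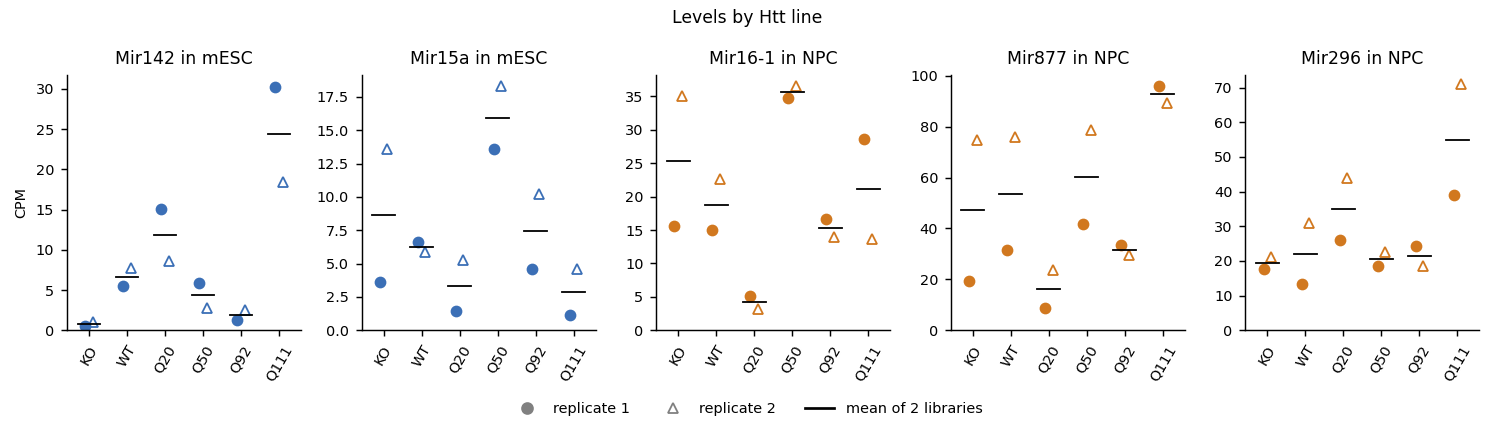
CPM (vertical axis, linear from 0, a scale of its own in each panel) of 5 precursors by Htt line, mESC in blue and NPC in orange, with filled circles for replicate 1, open triangles for replicate 2 and a line at the mean of 2 libraries. In mESC, Q111 is high and KO low for Mir142, and Q50 is high for Mir15a. In NPC, Q20 is low for Mir16-1 (5.20 and 3.13 CPM, from 3 and 2 counts) and Q111 is high for Mir877 and Mir296.

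In NPC, the lines differed for 3 of the 9 members tested, Mir16-1, Mir296 and Mir877, where 37.2% of 441 genes were called. Mir16-1 was at 15.6 and 35.1 CPM in KO, 15.0 and 22.6 in WT, 5.20 and 3.13 in Q20, 34.7 and 36.6 in Q50, 16.7 and 13.9 in Q92, and in Q111 28.6 and 13.7. Both Q20 libraries lay below the other 10 (edgeR adjusted p for any difference 0.0306). They held 3 and 2 counts, no more than the 3 counts taken as the floor of a library. In mESC, Q20 had 1 count in each library, as did Q111 replicate 2, and KO replicate 1 had 2. The lines did not pass the test there (unadjusted p 0.109, edgeR adjusted p 1.00).

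Mir877 was at 19.5 and 74.9 CPM in KO, 31.4 and 76.0 in WT, 8.67 and 23.5 in Q20, 41.6 and 78.8 in Q50, 33.4 and 29.4 in Q92, and, for Q111, 96.1 and 89.2. Both Q111 libraries lay above the other 10, while Q20 overlapped KO (edgeR adjusted p for any difference 0.0476). In KO, WT, Q20 and Q50 the replicate 2 library was the higher one, and in Q92 and Q111 the replicate 1 library.

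Mir296 was at 17.6 and 21.1 CPM in KO, 13.5 and 30.8 in WT, 26.0 and 43.9 in Q20, 18.5 and 22.5 in Q50, 24.3 and 18.6 in Q92, and, for Q111, 39.0 and 70.9. Q111 and Q20 were the highest lines and overlapped each other (edgeR adjusted p for any difference 0.0370).

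These calls rested on few libraries. Without the Q20 line, 0 of 9 members were called by edgeR, with adjusted p 0.648 for Mir16-1, 0.0546 for Mir296 and 0.231 for Mir877. Leaving out NPC Q92 replicate 1 also left 0 called, and DESeq2 called 1, Mir877. With library totals in place of TMM, 2 were called, and Mir877 was not (edgeR adjusted p 0.0760). Leaving out NPC Q20 replicate 1, Q20 replicate 2, Q92 replicate 2, Q111 replicate 1 or Q111 replicate 2 left 1 called.

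Set against the mean of the other 5 NPC lines, Q20 was lower for 2 of 9 members, Mir16-1 with a log2 difference of -2.25 ± 0.54 and Mir877 with -1.58 ± 0.50 (SE, edgeR adjusted p 0.0084 and 0.0334). Mir16-1 had 3 and 2 counts in the Q20 libraries, so its estimate rests on few reads. Of all 441 genes, 12.0% were called higher and 6.12% lower. Beside this stand the marker levels of those libraries given above, 362 and 382 CPM of mESC markers, mostly on microRNA rows. Their part in the result was not tested. Without either Q20 library alone, 0 members were called, and without NPC Q92 replicate 1 or Q111 replicate 1 only Mir16-1 was. When microRNA genes alone were fitted, of which 36.8% were called, the members shifted upward by a median of 1.02, and Mir296 was then called higher in Q20 while Mir16-1 and Mir877 were not called (edgeR adjusted p 0.101 and 0.189).

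Repeat length over the 4 knock-in lines gave no called member. In mESC, 0 of 13 were called, as were 0.00% of 1487 genes (edgeR, 48 genes with an unadjusted p under 0.05, DESeq2 0 called), and the slopes lay between -0.10 and 0.08 log2 units per 10 repeats. In NPC, 0 of 8 were called, against 6.45% of 403 genes, and DESeq2 called 0 members. The 2 members with an unadjusted p under 0.05 were Mir5099, with a slope of 0.11 ± 0.04 per 10 repeats, and Mir877, with 0.20 ± 0.07 (SE, edgeR adjusted p 0.137 and 0.142). Without the Q20 line the slope of Mir877 was 0.11 and that of Mir5099 0.14 (edgeR adjusted p 0.544 and 0.208). Without NPC Q50 replicate 2, Mir877 was called (0.24, edgeR adjusted p 0.0205). The slope did not differ detectably between cell types for any of 11 members, against 1.51% of 663 genes called by edgeR.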

How the data were processed

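Small RNA of 24 libraries was deposited as whole-number counts per gene, not normalized; the authors' counts were used as deposited. The submitters' processing notes name CASAVA 1.8, STAR, HTSeq and the build GRCm38.p6, with no settings; read trimming, strand, the annotation release and the handling of reads with several matches are not given in the sources used here. The authors' columns named Q89 were taken as the Q92 samples, because the growth protocol gives 89 repeats. Gene identifiers were matched to GENCODE mouse release 21 (55154 of 55335, the rest holding 57 counts).

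Tests used edgeR 4.0.16 in R 4.3.3 (glmQLFit and glmQLFTest, TMM, filterByExpr by group, count minimum 10, total minimum 15) on all genes of the table, with Benjamini-Hochberg adjustment over all genes tested and a call at an adjusted p under 0.05. NPC against mESC and the KO effect by cell type used all 24 libraries, comparisons of lines used the 12 libraries of 1 cell type, and slopes used its 8 knock-in libraries (20, 50, 92 and 111 repeats). The scripts were tested on simulated data. Shares of a pair of genes were compared by permutation over libraries, without regard to line (scipy 1.17.1). Hairpins were folded with RNAfold 2.7.2. Intervals and floors (95%, 3 counts) cover counting error only, and reads without molecular identifiers are not independent molecules.

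The members, lists and tests were chosen with earlier results of these data known. Every member was accounted for. Library or group values were given for the 6 with the most counts, for those called in NPC against mESC (up to 6 per direction) and for those called between lines (up to 4 per comparison); Mir142 and Mir15a in mESC, the 3 uncalled members and Mir708 were described after their values were seen. Replicate numbers come from the labels. The labels do not say what they share. In mESC the deviations of all 10 pairs of groups without Q20 were correlated (0.414 to 0.536) and may reflect a shared set, while those of the 5 pairs with Q20 reached at most 0.0834; in NPC 4 of 15 pairs were over 0.1. The rule needed every pair over 0.1, so the tests have no block, and values with the block are given where a call changed. Replicates differed by more than sampling noise in every group (chi-square per degree of freedom at least 2.02). Alternatives were DESeq2 1.42.0 and its size factors, library totals, no filter, microRNA genes alone, a replicate block, a batch term, WT libraries alone, an additive model, leaving out the Q20 lines or each library, 89 repeats for Q92, and other count minimums for the members.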

Additional observations from a re-analysis of the deposited data

How the results depend on the processing

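For NPC against mESC, the number of called members was 9 under every alternative except library totals (8), no filter (12), microRNA genes alone (13) and WT libraries alone (3), and the 9 kept their direction wherever they were tested. With the 4 WT libraries alone, Mir101b (-1.51), Mir877 (-1.72), Mir16-1 (1.68) and Mir5099 (-0.20) were no longer called, against -1.10, -2.04, 1.93 and -0.74 with all libraries, so only the estimate of Mir5099 was much smaller. Estimates changed sign for Mir296 (-0.12 with no filter, -0.24 with microRNA genes alone, -0.055 with replicate 2 libraries only), Mir15a (-0.026 and -0.24 in the first and second of these fits) and Mir6236 (-0.33, -0.49 and -0.12, and -0.34 with WT libraries alone). Leaving out 1 library gave -0.074 to 0.20 for Mir6236. All genes called were 528 of 904, 2024 of 19429 with no filter, 42 of 53 with microRNA genes alone and 123 of 440 with WT libraries alone; library totals gave 350 higher and 159 lower, against 275 and 253. For any difference among mESC lines, 0 members became 1 under library totals, no filter, the DESeq2 test and microRNA genes alone, and 2 under the replicate block and the batch term, with a range of 0 to 1 over libraries left out; all genes called rose from 1 to 65 at most. For NPC lines, 3 became 2 with library totals, 1 with no filter or the DESeq2 test, 6 with microRNA genes alone and 0 without the Q20 lines, with a range of 0 to 4. For Q20 in NPC, 2 became 0 with no filter and 1 with microRNA genes alone, with a range of 0 to 3. For the NPC slope the range was 0 to 1. Over all genes, calls for KO against WT in NPC went from 6 to 1 with library totals, 0 with no filter and 18 with the DESeq2 test, calls for the NPC slope from 26 to 50 with no filter, 11 with the DESeq2 test and 9 with the replicate block, and calls for Q20 from 80 to 48 with the DESeq2 test and to 21 or 25 without either Q20 library. The KO comparisons, the mESC slope and both comparisons between cell types stayed at 0 called members throughout. The replicate block changed no other call of a member: it left 9, 0, 3 and 2 members called in NPC against mESC, in each KO comparison, among NPC lines and in Q20. A minimum of 25 or 100 counts would give 40 or 12 members. Where a library left out reduces a group to 1, that library is assumed to vary like the other groups, and more genes pass the filter. The cause of these differences was not tested. Depth limits the 7 untested members, which had 50 to 112 counts over 24 libraries.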
